A study of Sus scrofa with 189 samples.

Results

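The slow fibre contractile genes described here are 10 genes of the deposited table, out of 12651: MYH7, MYH7B, MYL2, MYL3, TNNC1, TNNI1, TNNT1, TPM3, ATP2A2 and CASQ2. They were taken by gene name, and the transcripts of a gene were summed by gene identifier. All 10 were measured in all 189 libraries, none was at 0 in any library, and all 10 were among the 10717 genes that passed the filter on low values (a mean of at least 0.5 FPKM). The animals were first-generation (F1) pigs from 8 Duroc boars and Luchuan sows, for which the labels give 2 numbers, 158 and 112. All had the same diets on 1 farm and were slaughtered at 210 ± 6 days of age, and polyadenylated RNA was taken from the longissimus dorsi, the long back muscle, at the thoracolumbar junction. Sex and parentage of single animals are not in the labels. Intramuscular fat content (IMF, unit not stated) is the only trait given. The titles of 21 libraries carry the mark re-analyzed, whose meaning is not explained: 10 of these came from animals of high IMF (4.83 to 6.84) and 11 from animals of low IMF (0.77 to 2.33). The 168 unmarked libraries were 143 with IMF (1.19 to 5.61) and 25 without a recorded IMF.

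A muscle fibre contracts when calcium binds troponin C, the troponin complex moves tropomyosin off the actin filament, and myosin heads pull on the filament. Slow (type I) fibres build this machine from their own set of genes: a slow myosin heavy chain with its regulatory and essential light chains, slow troponin T, I and C subunits, and a slow tropomyosin. Their calcium is returned to the sarcoplasmic reticulum by the pump SERCA2 and buffered there in part by calsequestrin 2. The longissimus of the pig is a predominantly fast, glycolytic muscle, in which slow fibres are the minority.

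Summed FPKM (fragments per kilobase of transcript, scaled to the mapped fragments of the library) ranged from 364109 to 465105 per library. The header names no unit, and FPKM was taken from the layout and the tools named by the submitters. The table holds no read counts, so depth is unknown and all errors are the spread between animals. Unmarked library 39 resembled the rest least, with a median r of 0.889 to the other animals. There the 10 genes ranked between 12 and 137 of 189 from the bottom. The 10 most abundant genes held 20.0% to 44.8% of summed FPKM. The first principal component of all other tested genes, with 28.9% of the variance, had r = -0.85 with that share. In every library the summed level of the fast contractile genes stood above that of the slow ones. The 10 slow fibre genes summed to 1352 to 8048 FPKM in re-analyzed and 834 to 9486 FPKM in unmarked libraries, and 15 fast fibre genes to 36534 to 79615 and 34256 to 85524 FPKM.

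Among the myosin heavy chains, MYH7, the motor of slow fibres, had a lowest value of 105.7 FPKM, a median of 812 and a highest value of 1989 over the 189 animals. Its mean was 829.3 ± 337 FPKM (SD, n = 189). MYH7B, a related heavy chain gene whose span holds the microRNA gene MIR499, lay far below it (coordinates here and below are Sscrofa11.1), between 0.873 and 17.8 FPKM with a median of 5.15 and a mean of 5.89 ± 3.64 FPKM. MYH7B lies on the plus strand at chr17:38362450-38389321. MYH7 exceeded MYH7B in every animal, by a median of 138-fold and a range of 35.7-fold to 931-fold. FPKM are scaled to transcript length, so these levels may be compared between genes, as far as the annotated lengths are right.

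Of the light chains that sit on the neck of the myosin head, the essential chain MYL3 ranged from 90.4 to 1492 FPKM with a median of 513 and a mean of 561 ± 283 FPKM. The regulatory chain MYL2 ranged from 66.1 to 726 FPKM with a median of 355 and a mean of 362 ± 135 FPKM. MYL3 was above MYL2 by a median of 1.54-fold, but the ratio lay between 0.486 and 3.60 across animals. MYL3 lies at chr13:29730583-29735586 and MYL2 at chr14:32202466-32213672, both on the minus strand. Each is listed with 1 transcript, of 593 bases for MYL3 and of 4116 bases for MYL2. The MYL2 transcript also overlaps the RefSeq gene CCDC63 and runs outside the RefSeq span of MYL2 (chr14:32205953-32213848). FPKM are divided by transcript length, so MYL2 would read too low if its RNA is shorter than the listed transcript. The ratio of MYL3 to MYL2 rests on these lengths, and their effect was not tested.

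Troponin C, the calcium sensor, was the highest of the 10 genes. TNNC1 ranged from 165.8 to 3248 FPKM, with a median of 1201 and a mean of 1288 ± 593 FPKM. TNNT1, the subunit that binds tropomyosin, ranged from 211 to 1788 FPKM with a median of 860 and a mean of 868 ± 309 FPKM. TNNI1, the inhibitory subunit, ranged from 86.9 to 912 FPKM with a median of 385 and a mean of 408 ± 174 FPKM. The genes lie on the minus strand at chr13:34591210-34594329 (TNNC1), chr6:59351177-59365770 (TNNT1) and chr10:23784634-23804082 (TNNI1). The ratio of TNNC1 to TNNI1 was the steadier one, with a median of 3.24 and a range of 1.76 to 4.54, while that of TNNC1 to TNNT1 had a median of 1.45 and ran from 0.740 to 2.92. On the log2 scale the SD of these ratios was 0.30 and 0.48, against 0.72 for TNNC1 itself.

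TPM3, the slow tropomyosin, ranged from 73.4 to 770 FPKM with a median of 350 and a mean of 371 ± 141 FPKM. ATP2A2, which encodes SERCA2, ranged from 29.1 to 370.5 FPKM with a median of 169 and a mean of 171 ± 67.8 FPKM. CASQ2, the calcium-binding protein of the reticulum, was the lowest, between 0.812 and 16.4 FPKM with a median of 4.68 and a mean of 5.44 ± 3.31 FPKM. These 3 lie on the plus strand at chr4:95542324-95573009 (TPM3), chr14:31674654-31744978 (ATP2A2) and chr4:104918501-104982852 (CASQ2). Descending by mean, the order was TNNC1, TNNT1, MYH7, MYL3, TNNI1, TPM3, MYL2, ATP2A2, MYH7B and CASQ2. Between neighbours in this order, TNNC1 was above TNNT1 in 149 of 189 animals, MYH7 above MYL3 in 157, MYL3 above TNNI1 in 152, MYL2 above ATP2A2 in 185 and ATP2A2 above MYH7B in 189. The other 4 neighbouring pairs were not ordered beyond their spread: TNNT1 was above MYH7 in 107 animals, TNNI1 above TPM3 in 105, TPM3 above MYL2 in 97 and MYH7B above CASQ2 in 99.

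All 10 genes varied more between animals than most tested genes. The SD of log2(FPKM + 1) was 0.56 for TNNT1 at the low end and 0.80 for MYL3 at the high end, against a median of 0.37 over the 10717 tested genes. TNNT1 exceeded 81.8% of the tested genes in this measure, MYH7B 94.4% and MYL3 95.5%. The added 1 lowers this SD for low genes, MYH7B and CASQ2 among them. As a share of the mean, the SD of FPKM was highest for MYH7B (61.9%) and CASQ2 (60.8%). It was 50.5% for MYL3 and lowest for TNNT1 (35.6%). The highest animal had between 8.46 times (TNNT1) and 20.4 times (MYH7B) the level of the lowest.

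**Figure D1:**
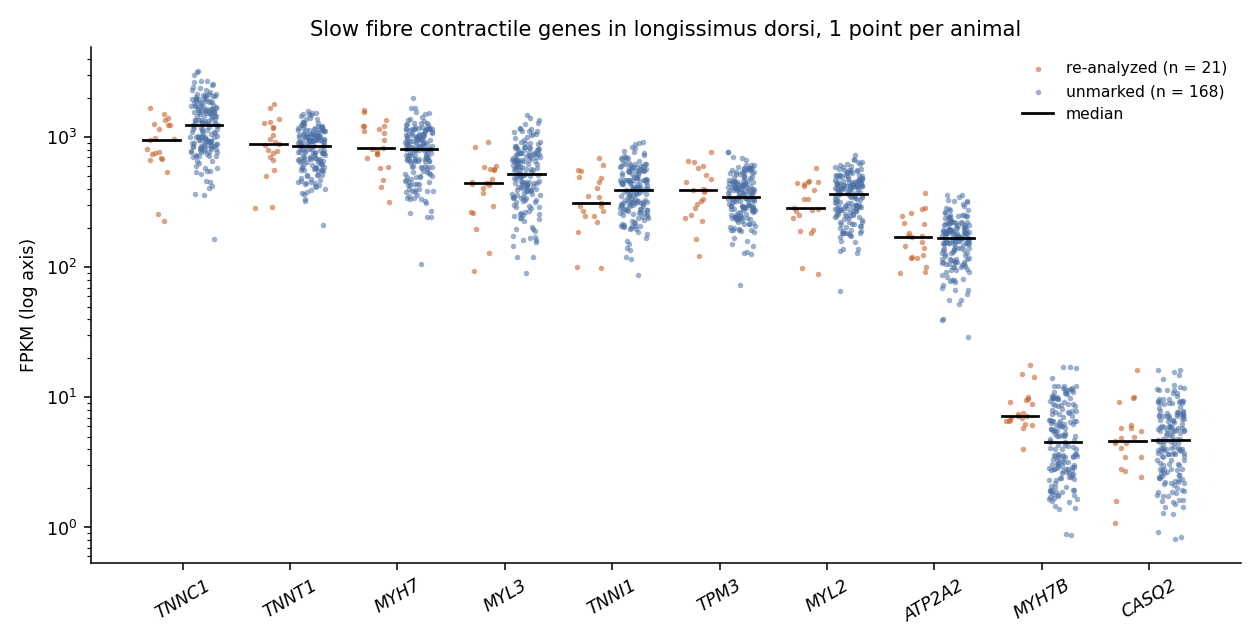
FPKM on a log axis of the 10 slow fibre genes, ordered by mean level, with 1 point per animal, re-analyzed libraries (n = 21) left of unmarked ones (n = 168), and bars at the medians. MYH7B and CASQ2 lie between 0.812 and 17.8 FPKM, while ATP2A2, the lowest of the other 8, starts at 29.1 FPKM.

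Several of these levels carry an annotation limit. The table's MYH7 gene (chr7:75650847-75704483, plus strand, Sscrofa11.1) sums 6 transcripts, of which 1, at chr7:75650847-75672910, lies inside the RefSeq span of MYH7. That transcript held 61.2% of the mean level, and between 28.6% and 75.9% in single animals. Another 4 run on into the neighbouring RefSeq gene LOC100736765, and 1, with 3.03% of the mean, lies in that neighbour alone. Reads of near-identical myosin genes could be assigned to either gene, so MYH7 values may hold reads of that neighbour. The table's MYH2 gene, used below as a fast gene, drew 83.1% of its mean from a transcript inside the RefSeq span of MYH1. MYH7B and ATP2A2 transcripts overlap the RefSeq genes TRPC4AP and ANAPC7, and the kit named in the labels is not stated to mark strand. The MYL2 level is scaled to a transcript of 4116 bases that runs outside the RefSeq span of MYL2. The place of MYL2 in the order by mean, and its share of MYL2 and MYLPF below, rest on that length.

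Set against the fast gene of the same role, the slow gene was the lower one on average in every family. MYH7 made up 30.8% ± 12.4 (SD, n = 189) of MYH7 and MYH4, and 12.9% ± 5.02 of the sum of MYH7, MYH2 and MYH4, with a range of 2.13% to 28.2%. Of the slow and fast pair, TNNC1 made up 17.1% ± 7.11, TNNT1 6.39% ± 2.35 and TNNI1 5.46% ± 2.55, although the 3 subunits work in 1 complex. MYL3 made up 19.4% ± 8.54 of MYL3 and MYL1, and MYL2 2.46% ± 1.11 of MYL2 and MYLPF. TPM3 made up 9.50% ± 4.09 of TPM3 and TPM1, ATP2A2 7.53% ± 3.21 of both calcium pumps and CASQ2 0.699% ± 0.557 of both calsequestrins. Over the 9 pairs, the average share ran from 0.699% for CASQ2 to 30.8% for MYH7. The levels of the slow and the fast gene of a family were not related across animals at the threshold used: none of the 9 pairs passed (permutation test, 100000 resamples within library set, 2-sided, Benjamini-Hochberg over 9 pairs). Pearson's r ran from -0.15 for TNNC1 and TNNC2 (rho = -0.16, adjusted permutation p = 0.229 for both) to 0.14 for TNNI1 and TNNI2 (rho = 0.13, adjusted permutation p = 0.229 for r and 0.258 for rho). Without the 2 animals farthest from the median these were -0.13 and 0.17. In bulk muscle, fewer slow fibres and less slow RNA per fibre cannot be told apart.

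The animals at the low end were largely shared between genes. Unmarked library 56 held the lowest value of 8 of the 10 genes: 105.7 FPKM of MYH7, 66.1 of MYL2, 90.4 of MYL3, 165.8 of TNNC1, 86.9 of TNNI1, 211 of TNNT1, 73.4 of TPM3 and 29.1 of ATP2A2. In that library MYH7B, at 2.96 FPKM, and CASQ2, at 2.11 FPKM, ranked 138 and 166 from the top of 189. Unmarked library 9 was among the 10 lowest animals for 9 genes, with MYH7B the exception at rank 151. Re-analyzed library 128, of low IMF, was among the 10 lowest for 7 genes, with 93.0 FPKM of MYL3 and 228.7 of TNNC1, while its MYH7B level of 6.29 FPKM ranked 77. At the high end, unmarked library 48 was among the 10 highest for 7 genes, with 1547 FPKM of TNNT1 and 2703 of TNNC1, and library 124 for 5, among them the highest MYL2 (726 FPKM). Neither ranked high for MYH7B, with 4.02 and 2.36 FPKM.

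The correlation between the 10 genes across animals was tested on log2(FPKM + 1) less the mean of each library set. Of 45 pairs, 41 passed (permutation test within library set, 100000 resamples, 2-sided, Benjamini-Hochberg over 45 pairs), all with positive r. By Spearman's rho 42 passed, among them MYH7B and TNNC1 with a negative rho (-0.18). The median r was 0.66 and the median rho 0.61. An r over 0.5 was reached by 27 of the 45 pairs (60%), against 7.67% of all pairs of tested genes, whose median r was 0.08. The genes other than MYH7B and CASQ2 formed a tight block of 8, with a median r of 0.76 over 28 pairs and a range of 0.42 to 0.92. All p given as 1.32e-05 below rest on the smallest p that 100000 resamples can give, 1e-05.

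The closest pairs were found within the troponin complex and between troponin, light chain and tropomyosin. TNNT1 and MYL2 had r = 0.92 (rho = 0.89, adjusted permutation p = 1.32e-05), 0.95 in re-analyzed and 0.91 in unmarked libraries, and 0.91 without the 2 animals farthest from the TNNT1 median. TNNI1 and TNNC1 had r = 0.91 (rho = 0.91, adjusted permutation p = 1.32e-05), 0.97 in re-analyzed and 0.90 in unmarked libraries, and 0.90 without the 2 farthest animals. MYL2 and TPM3 followed with r = 0.88 (rho = 0.86), and TNNT1 and TPM3 with r = 0.87 (rho = 0.85, both adjusted permutation p = 1.32e-05). TNNI1 also stood close to MYL3 (r = 0.86, rho = 0.84, adjusted permutation p = 1.32e-05). MYH7 was closest to ATP2A2, with r = 0.81 (rho = 0.77, adjusted permutation p = 1.32e-05), 0.75 in re-analyzed and 0.81 in unmarked libraries, and 0.78 without the 2 farthest animals. The weakest pair of the block was MYL3 and ATP2A2 (r = 0.42, rho = 0.38, adjusted permutation p = 1.32e-05).

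CASQ2 followed the block weakly. Its r with the 8 genes lay between 0.22 with TPM3 (rho = 0.23, adjusted permutation p = 0.00204) and 0.37 with MYL3 (rho = 0.37, adjusted permutation p = 1.32e-05). These were 0.22 and 0.37 without the 2 animals farthest from the median of TPM3 or MYL3. In the 21 re-analyzed libraries alone, no pair with CASQ2 passed, and its r lay between 0.16 and 0.38. In unmarked libraries its r with the 8 genes lay between 0.21 and 0.39. With 21 animals the lack of calls cannot show a weaker relation. MYH7B rose with 5 of the 8 genes and not with the other 3. On deviations from title code means its r was 0.12 with MYH7 and 0.06 with MYL2, and neither passed (adjusted permutation p = 0.21 and 0.514). It had r = 0.49 with TPM3 (rho = 0.47), 0.44 with ATP2A2 (rho = 0.42) and 0.38 with TNNT1 (rho = 0.36), each with an adjusted permutation p of 1.32e-05. Its r was -0.14 with TNNC1 (rho = -0.18, adjusted permutation p = 0.0542 for r and 0.014 for rho), -0.09 with MYL3 (adjusted permutation p = 0.235) and -0.01 with TNNI1 (adjusted permutation p = 0.866). Within the library sets these values split. In re-analyzed libraries MYH7B had r = 0.73 with TNNC1, 0.60 with MYL3 and 0.83 with TNNI1 (adjusted permutation p = 0.000497, 0.00589 and 4.09e-05), and in unmarked libraries -0.21, -0.14 and -0.08 (adjusted permutation p = 0.00696, 0.0747 and 0.293). The difference between the sets was not tested.

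**Figure D2:**
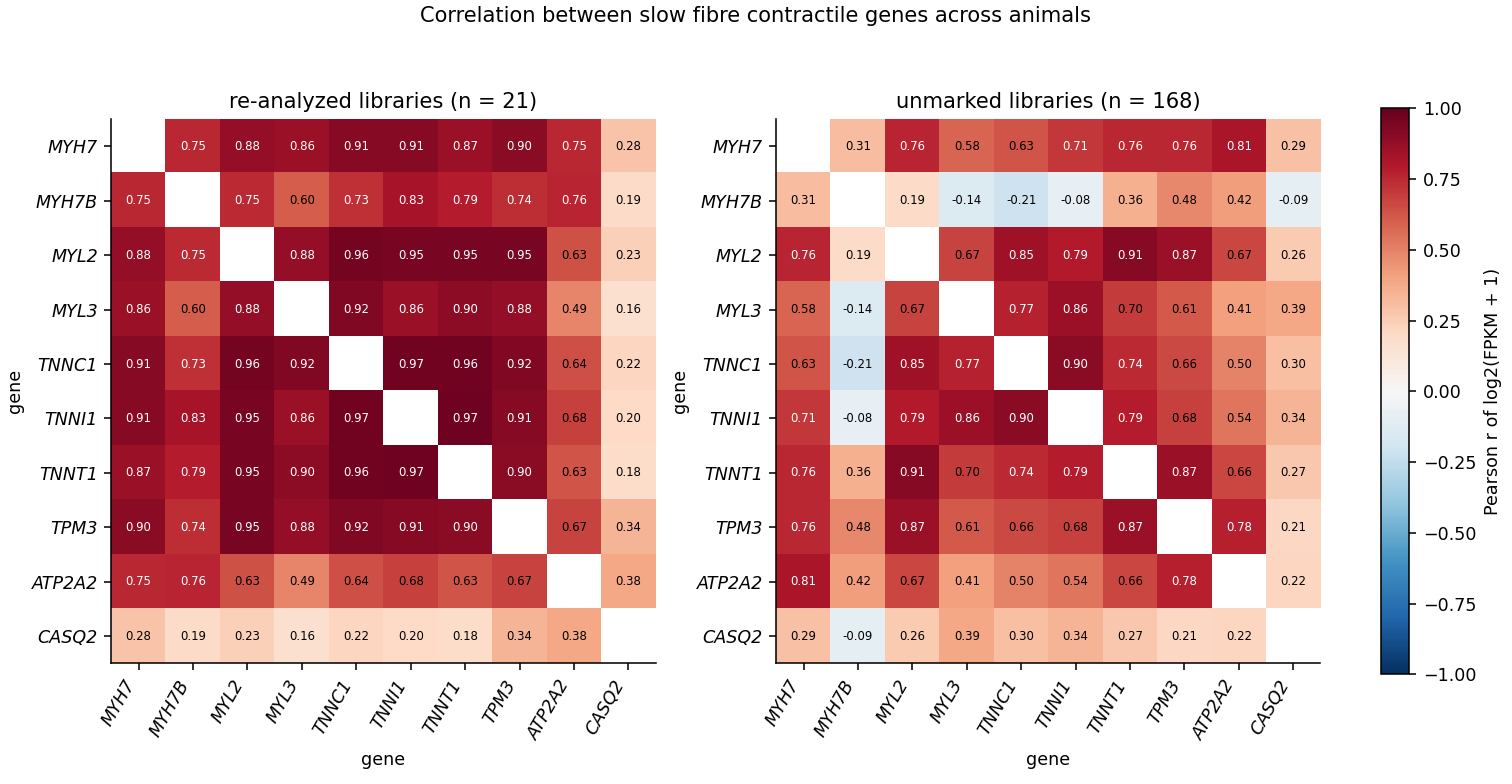
Pearson r between the 10 genes across animals, on log2(FPKM + 1), in re-analyzed (left, n = 21) and unmarked libraries (right, n = 168), with genes ordered by role. The 8 genes other than MYH7B and CASQ2 form a red block in both panels, and the MYH7B row is red at left (0.19 to 0.83) and mixed at right (-0.21 to 0.48).

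MYH7B also moved with the composition of the library. Its level had r = -0.67 (rho = -0.71, adjusted permutation p = 3.33e-05 for r over 20 relations) with the share of summed FPKM held by the 10 most abundant genes, and -0.68 once the 2 animals farthest from the median were left out. The value was -0.25 in re-analyzed and -0.70 in unmarked libraries alone. MYL3 went the other way with r = 0.41 (rho = 0.41, adjusted permutation p = 3.33e-05), 0.29 in re-analyzed and 0.43 in unmarked libraries, while ATP2A2 had r = -0.38 (rho = -0.40, adjusted permutation p = 3.33e-05), -0.52 and -0.37. MYH7, TNNT1, MYL2 and CASQ2 did not pass for this share, with r of -0.11, -0.02, 0.07 and 0.08 (adjusted permutation p = 0.197, 0.843, 0.389 and 0.311). TNNC1 (r = 0.31), TNNI1 (0.28) and TPM3 (-0.19) did pass (adjusted permutation p = 3.33e-05, 0.000425 and 0.0142). A second library measure, the mean log2 level of long genes less that of short genes, passed for MYL3 (r = -0.38, rho = -0.37), TNNI1 (r = -0.33, rho = -0.33) and ATP2A2 (r = 0.31, rho = 0.26), with adjusted permutation p of 3.33e-05, 3.33e-05 and 5.71e-05. It also passed for TNNC1 (r = -0.23), MYH7B (0.20) and TNNT1 (-0.19, adjusted permutation p = 0.00389, 0.0111 and 0.0176). With the share of the 10 most abundant genes taken out of every gene, the median r of the 45 pairs was 0.74, that of the 28 pairs of the block 0.80, and MYH7B had r = 0.25 with TNNI1, 0.28 with MYL3 and 0.09 with TNNC1. Whether RNA quality lies behind either measure was not tested. The 10 most abundant genes were taken in each library by itself and are not named here. The fast genes MYLPF and TNNT3 averaged 15309 and 12990 FPKM, and how far the share holds fast fibre RNA was not tested.

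**Figure D3:**
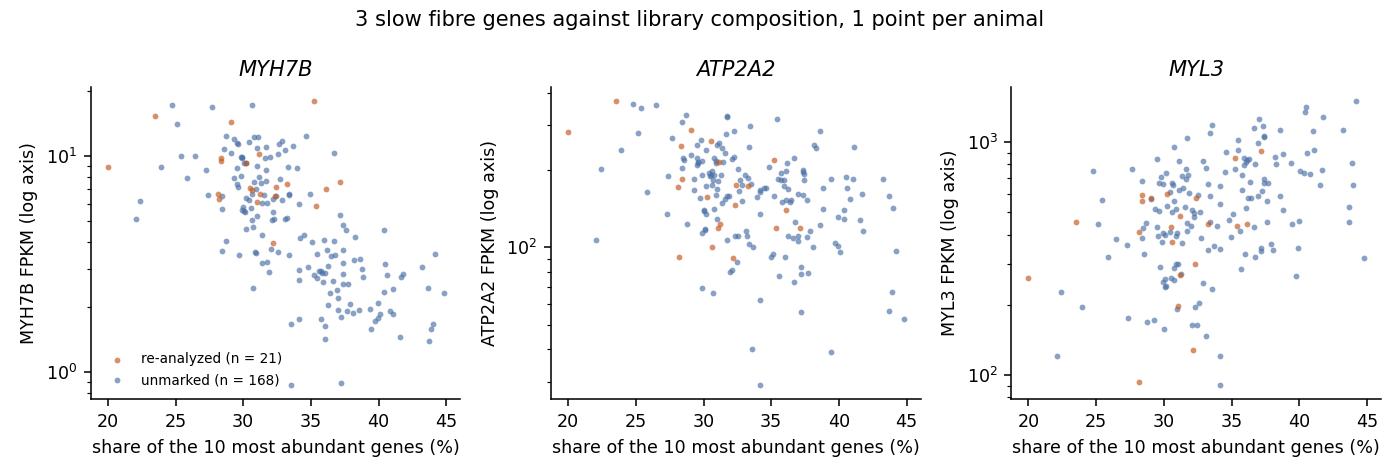
MYH7B, ATP2A2 and MYL3 FPKM on log axes against the share of summed FPKM held by the 10 most abundant genes, with 1 point per animal, re-analyzed (n = 21, orange) and unmarked (n = 168, blue). MYH7B falls along the axis (r = -0.67), ATP2A2 less so (r = -0.38), and MYL3 rises (r = 0.41).

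A fit over all genes gave the size of these relations. The log2 level of every gene was regressed on that of MYH7 with the library set as covariate (limma on 189 animals, 2-sided, Benjamini-Hochberg over 10716 genes), and 437 genes passed (4.08%), 315 with positive slopes (2.94%) and 122 with negative ones (1.14%). All 9 other slow fibre genes rose with MYH7. With the share of the 10 most abundant genes as a further covariate 2374 genes passed, of which 21.8% had positive slopes in place of 72.1%, and with library medians set equal 2815 passed, 58.9% of them positive. The 9 slow fibre genes passed under both of these settings. Among 146 animals of shared title codes, described at the end, with the code as a block, 58 genes passed and 8 of the 9 slow fibre genes did. MYH7B did not, with a slope of 0.14 ± 0.12 (SE, limma adjusted p = 0.571).

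ATP2A2 had the steepest slope, 0.78 ± 0.04 (SE) log2 units per log2 unit of MYH7 (limma adjusted p = 6.26e-41), and the largest statistic of all genes tested. Slopes of the light chains were 0.74 ± 0.07 for MYL3 and 0.70 ± 0.04 for MYL2 (limma adjusted p = 6.44e-18 and 3.67e-35). Those of the troponins were 0.73 ± 0.05 for TNNI1, 0.70 ± 0.06 for TNNC1 and 0.65 ± 0.04 for TNNT1 (limma adjusted p = 2.43e-29, 9.13e-22 and 1.27e-34), and TPM3 had 0.68 ± 0.04 (limma adjusted p = 3.67e-35). MYH7B and CASQ2 had the shallowest slopes, 0.37 ± 0.08 and 0.33 ± 0.08 (limma adjusted p = 0.00042 and 0.00391), and ranked 69 and 101 of 10716 by absolute statistic, against ranks of 1 to 8 for the other 7. All 9 slopes were below 1, which does not mean that these genes varied less than MYH7. The SD of log2(FPKM + 1) was 0.659 for MYH7. It was higher for MYL3 (0.80), MYH7B (0.76), CASQ2 (0.73), TNNC1 (0.72) and TNNI1 (0.661), and lower for ATP2A2, MYL2, TPM3 and TNNT1.

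Slopes of the fast partners were smaller in size. Of the 9 fast genes of the same families, TNNC2 (-0.12 ± 0.03), TNNT3 (-0.11 ± 0.03) and MYL1 (-0.13 ± 0.04) fell as MYH7 rose (limma adjusted p = 0.00655, 0.0203 and 0.0278), and the other 6 did not pass. With library medians set equal, TNNC2, TNNT3 and MYL1 did not pass either (adjusted p = 0.793, 0.755 and 0.499) and the slope of TNNT3 was 0.02, while those of ATP2A1 (0.19, adjusted p = 0.000317) and CASQ1 (0.18, adjusted p = 0.0301) passed as positive. The fast heavy chains MYH4 and MYH2 had slopes of 0.07 ± 0.07 and 0.07 ± 0.05 (limma adjusted p = 0.655 and 0.546).

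**Figure D4:**
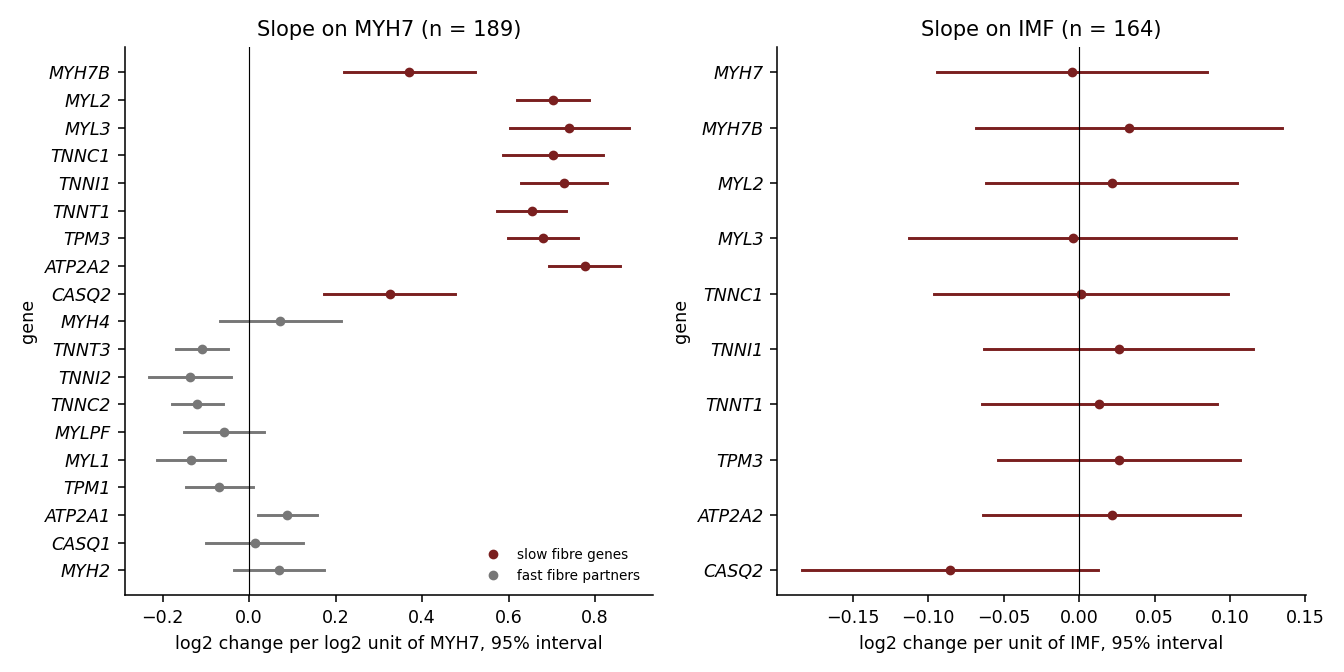
Left, slopes of log2 level on log2 MYH7 level for the other 9 slow fibre genes (red) and 10 fast fibre genes (grey), with 95% intervals, and right, slopes of the 10 slow fibre genes on IMF. The slow genes lie between 0.33 and 0.78 and the fast genes between -0.14 and 0.09 at left, and every interval on IMF spans 0.

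Other muscle genes were set beside them by list. Of 13 other slow fibre and sarcomere genes, 7 rose with MYH7, 1 fell (SLN, a small inhibitor of the calcium pumps, slope -0.12, limma adjusted p = 0.0108, named after its value was seen) and 5 did not pass, with a median slope of 0.24 against -0.01 over all tested genes. The Z-disc gene PDLIM1 (slope 0.41), slow myosin-binding protein MYBPC1 (0.35), the calcineurin-binding Z-disc gene MYOZ2 (0.53) and the LIM-domain gene FHL1 (0.24) were the 4 with the largest statistics (limma adjusted p = 1.34e-10, 2.24e-09, 5.79e-09 and 8.1e-06). With library medians set equal, 8 of the 13 rose and none fell, and SLN did not pass (-0.06, adjusted p = 0.161). Of 16 oxidative metabolism genes, 6 rose and none fell, with a median slope of 0.09. Among them were SDHA, a subunit of succinate dehydrogenase (0.19), the heart-type lactate dehydrogenase LDHB (0.30), UQCRC1 of respiratory complex III (0.17) and HADHA of fatty acid oxidation (0.18, limma adjusted p = 6.98e-09, 2.43e-06, 3.8e-06 and 0.000195). Of 15 fast fibre contractile genes, 1 rose, MYLK2 (0.22, limma adjusted p = 0.0284), a kinase of the regulatory light chain, and 4 fell. The 4 were TNNC2, TNNT3, MYL1 and PVALB, the calcium buffer of fast fibres (-0.44, limma adjusted p = 0.0406, named after its value was seen). With library medians set equal, 6 of the 15 rose and none fell, while of all 10716 genes 1657 rose and 1158 fell. The direction of this list therefore rests on the scaling.

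Of 27 tested regulators of fibre type, the coactivator PPARGC1B rose (slope 0.22 ± 0.04, limma adjusted p = 0.000102) and 26 did not pass, with a median slope of -0.00. Over all tested genes 4.08% passed, so 1 of 27 is near the background. The next 3 by statistic were NFATC3 (0.17), ESRRA (0.11) and NFATC4 (-0.06, limma adjusted p = 0.0864, 0.12 and 0.247). With library medians set equal, 4 of the 27 rose and none fell. With the share of the 10 most abundant genes as covariate, 2 rose and 2 fell. Over all tested genes, 2815 and 2374 passed under these 2 settings. Of 12 calcium release and triad genes, the calcium channel subunit CACNG1 fell (-0.13, limma adjusted p = 0.0467) and 11 did not pass, among them HRC (0.11), CACNA1S (0.09) and SRL (0.08). With library medians set equal, 6 rose and 1 fell, and CACNG1, with a slope of 0.00, did not pass. Of 5 developmental myosin and spindle genes, EGR3 rose (0.17, limma adjusted p = 0.0377), and TNNT2 (0.24), ACTC1 (-0.12) and MYH3 (0.04) did not pass.

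None of the tested markers of adipocytes (8), fibroblasts (8), endothelial cells and pericytes (7), smooth muscle (5), macrophages and lymphocytes (6) or nerve (4) was called on MYH7. Over all tested genes 4.08% passed, and at that share lists this short hold few or no calls. The absence of calls therefore does not set these markers apart from other genes. Adipocyte markers had slopes of -0.15 to 0.13, with PLIN4 at 0.13 (limma adjusted p = 0.0512), CEBPA at -0.15, TUSC5 at -0.12 and ADIPOQ at -0.11. Fibroblast slopes ran from -0.16 for POSTN through COL1A1 (-0.12), DCN (-0.11) and SPARC (-0.08) to -0.03. Endothelial and pericyte slopes ran from -0.02 to 0.12, with VWF (0.12), KDR (0.09), CDH5 (0.08) and PECAM1 (0.07). For smooth muscle they were -0.20 for CNN1, 0.12 for MYH11, 0.05 for DES, which muscle fibres also express, and 0.01 for ACTA2. For macrophages CD14, C1QC, CD163 and CD68 had -0.07, -0.04, 0.05 and -0.02, and for nerve NCAM1, PMP22 and MBP had -0.17, -0.17 and 0.12. With library medians set equal, the markers called included PLIN4 (0.17, adjusted p = 0.00147), VWF (0.11), KDR (0.11), DES (0.12) and MBP (0.14) as rising, and CEBPA (-0.20) and POSTN (-0.16) as falling (adjusted p of the 6 named after PLIN4 between 0.0251 and 0.0408). Under that setting 2815 of the 10716 tested genes passed, so these calls do not set the markers apart from other genes either. The part of these markers in the slopes of the slow fibre genes was not tested.

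**Figure D5:**
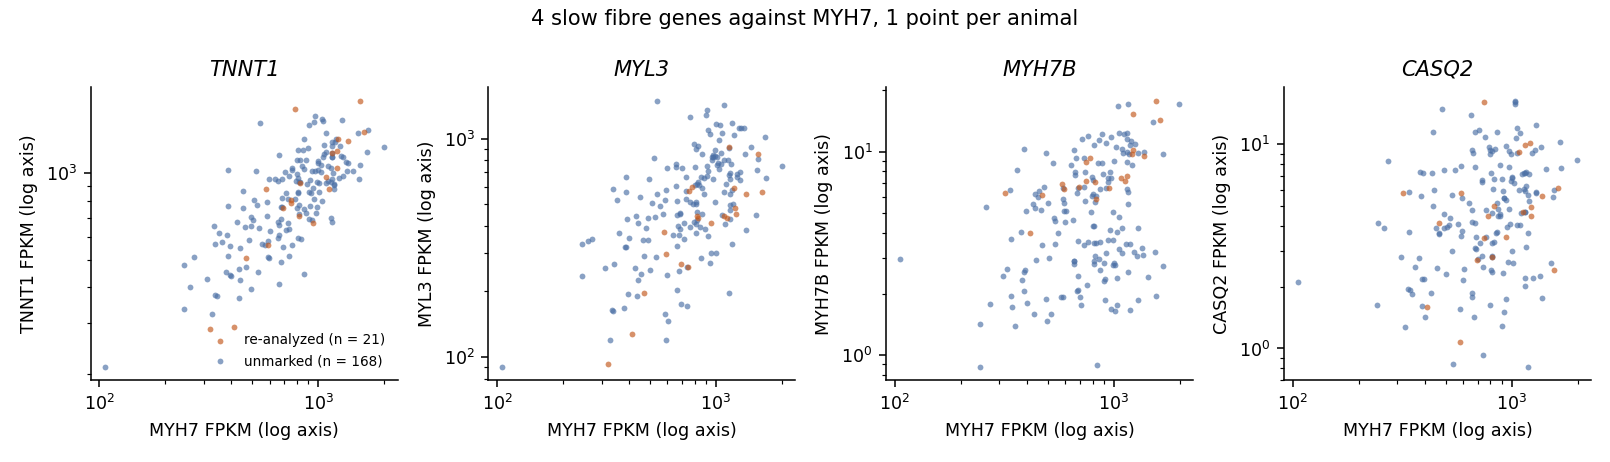
TNNT1, MYL3, MYH7B and CASQ2 FPKM against MYH7 FPKM, both on log axes, with 1 point per animal, re-analyzed (n = 21, orange) and unmarked (n = 168, blue). TNNT1 and MYL3 rise with MYH7 (r = 0.77 and 0.61), MYH7B and CASQ2 scatter widely (r = 0.33 and 0.29), and unmarked library 56 stands alone at the low end of MYH7.

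Single transcripts differed in how closely they followed the other 9 genes, measured as r with their mean z-score. The MYH7 transcript inside the RefSeq span had r = 0.79, and the one that lies in the neighbouring gene alone had 0.47. TPM3 drew 92.7% of its mean from 1 transcript of 2556 bases, which had r = 0.88, while its other 3 transcripts had r of 0.16, 0.27 and 0.43. For ATP2A2, the transcript of 3878 bases held 74.0% of the mean and had r = 0.75, and that of 7805 bases 0.40. All 4 MYH7B transcripts lay low, with r between 0.14 and 0.21. These r are descriptions of transcripts of 1 gene, which share reads.

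The genes most like the slow fibre genes were ranked by Pearson's r of their level with the mean z-score of the 10 genes over 189 animals, which is a description with no test. First came an unnamed gene at chr5:21554351-21558992, which overlaps the RefSeq gene MYL6B, an alkali light chain gene, and a long noncoding RNA gene (r = 0.67, mean 149 ± 86.4 FPKM). CRHR2, a receptor of the corticotropin-releasing hormone family, was next (r = 0.65, mean 1.36 ± 0.588 FPKM). The next, unnamed gene at chr7:75669445-75672321 lies on the minus strand inside the span of MYH7 (r = 0.62). Without stated strand its reads cannot be told apart from those of MYH7. MYOZ2 (0.60), PDLIM1 (0.58), LDHB (0.54), UQCRFS1 of respiratory complex III (0.50), the lipid droplet gene PLIN5 (0.49), NDUFA9 of complex I (0.49) and the mitochondrial isocitrate dehydrogenase IDH2 (0.48) completed the first 10. The 10 lowest ran from -0.39 for ZNF275 through USP31 (-0.35), 2 unnamed genes on unplaced scaffolds (-0.34 each), GAK (-0.33), CHRD (-0.32), WNT9A (-0.32), HM13 (-0.31) and ANKRD54 (-0.30) to TTC7A (-0.30).

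Each gene also had its own nearest non-members. Outside the 10, MYH7 was nearest to the minus-strand gene within its span (r = 0.64), MYL2 and TNNT1 to the unnamed gene at the MYL6B locus (0.74 and 0.70), and TNNI1 to it as well (0.70). TNNC1 was nearest to PDLIM1 (0.75), the mitochondrial ribosome gene MRPS6 (0.71) and LDHB (0.69), TPM3 to MYOZ2 (0.77) and ATP2A2 to MYBPC1 (0.67). PLN, the inhibitor of SERCA2, was among the 3 nearest to TPM3 (0.62), and MYL3 was nearest to ATP5D (0.65), COX4I1 (0.64) and PRDX2 (0.63). The next 2 for ATP2A2 were NDUFS1 and NNT (0.61 each). CASQ2 had no near neighbour, with STK16, ACTN2 and FHL1 at 0.37, 0.37 and 0.36. Over all 189 animals MYH7B had other neighbours. Its nearest were CATSPER4 (0.82), EGLN1 (0.81) and an unnamed gene that overlaps SNRNP70 and NTF4 (0.80). Those r were 0.31, 0.18 and 0.35 in re-analyzed and 0.84, 0.83 and 0.82 in unmarked libraries, a difference that was not tested. Ranked against all 10716 other genes over the 189 animals, none of the other 9 slow fibre genes was among the first 100 for MYH7B, and its best was TPM3 at rank 2014. These ranks were not adjusted for library composition, and MYH7B had r = 0.76 with the first principal component. In re-analyzed libraries alone, the r of MYH7B with the block of 8 lay between 0.60 and 0.83. For MYH7, 8 of the 9 were among the first 100.

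Re-analyzed libraries were compared with unmarked ones with IMF as a linear covariate (limma, 164 animals, 2-sided). No re-analyzed animal had an IMF between 2.33 and 4.83, and their highest was 6.84, against 5.61 in unmarked animals. The adjustment for IMF therefore rests on a straight line. Of 10717 genes 4400 passed (41.1%), 18.3% as higher and 22.7% as lower in re-analyzed libraries, so the 2 of 10 slow fibre genes that passed are not above the background. MYH7B ranged from 3.98 to 17.8 FPKM with a median of 7.14 in the 21 re-analyzed libraries, and from 0.873 to 17.1 FPKM with a median of 5.05 in the 143 unmarked libraries with IMF. The groups overlapped, and the lowest re-analyzed value ranked 114 from the top of 189. MYH7B was higher in re-analyzed libraries by 0.62 ± 0.17 (SE) on the log2 scale (limma adjusted p = 0.00237). TNNC1 ranged from 228.7 to 1675 FPKM with a median of 949 in re-analyzed libraries, and from 165.8 to 3248 FPKM with a median of 1218 in unmarked libraries with IMF. The groups overlapped here too, and TNNC1 was lower in re-analyzed libraries, by -0.49 ± 0.17 (limma adjusted p = 0.0136).

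The other 8 genes did not pass, with differences from -0.35 ± 0.19 for MYL3 (limma adjusted p = 0.12) to 0.18 ± 0.15 for MYH7 (limma adjusted p = 0.345). Under quantile normalization MYL2 and MYL3 passed as well, as lower in re-analyzed libraries by -0.36 and -0.44 (adjusted p = 0.0285 and 0.0487). With the measure of long less short genes as covariate, MYL3 (-0.62) and TNNI1 (-0.44) passed as lower (limma adjusted p = 0.00214 and 0.00972). With the share of the 10 most abundant genes as covariate TNNC1 did not pass (-0.35, adjusted p = 0.0697). With title code as a block, in 122 animals of shared codes, TNNC1 passed (-0.75 ± 0.23, adjusted p = 0.027) and MYH7B did not (0.64 ± 0.26, adjusted p = 0.0913). That fit rests on 12 codes that hold both kinds of library, with 13 re-analyzed and 24 unmarked animals. The share of the 10 most abundant genes averaged 30.7% ± 4.01 in re-analyzed and 33.8% ± 4.58 in unmarked libraries (SD, n = 21 and 168). In the same libraries the measure of long less short genes averaged -0.10 ± 0.17 and 0.01 ± 0.14. Of the markers of other cells, 6 of 8 adipocyte, 7 of 8 fibroblast and 5 of 6 macrophage and lymphocyte markers were lower in re-analyzed libraries. So were 4 of 7 endothelial and pericyte, 3 of 5 smooth muscle and 2 of 4 nerve markers, and 1 smooth muscle marker was higher. Over all tested genes 22.7% were lower and 18.3% higher, and a list of 4 genes is too short to set against these shares. Summed adipocyte markers ranged from 54.7 to 337 FPKM in re-analyzed and 73.1 to 3221 FPKM in unmarked libraries, and summed fibroblast markers from 286 to 1537 and 285 to 3488 FPKM. Their part in the differences of MYH7B and TNNC1 was not tested.

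None of the 10 slow fibre genes passed for IMF in 164 animals with the library set as covariate (limma, 2-sided), against 9 of 10717 genes overall (0.084%), and 527 genes had an unadjusted p under 0.05. Slopes on the log2 scale per unit of IMF ran from -0.09 ± 0.05 (SE) for CASQ2 (95% interval -0.18 to 0.01, limma adjusted p = 0.961) to 0.03 ± 0.05 for MYH7B (-0.07 to 0.13, limma adjusted p = 0.961). For MYH7 the slope was -0.00 ± 0.05, with a 95% interval of -0.09 to 0.08. In the 41 animals of highest IMF (3.97 to 6.84) MYH7 ranged from 105.7 to 1989 FPKM with a median of 814.5 and a mean of 886 ± 362, and in the 41 of lowest IMF (0.77 to 2.61) from 244.5 to 1620 FPKM with a median of 855 and a mean of 865 ± 340 FPKM. CASQ2 had a median of 4.54 and a mean of 5.00 ± 3.25 FPKM in the 41 of highest IMF, and a median of 4.97 and a mean of 6.02 ± 3.68 FPKM in the 41 of lowest IMF. For both genes the ranges of the 2 ends overlapped.

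Within the re-analyzed libraries the contrast of IMF was wider. The 10 animals of high IMF and the 11 of low IMF did not differ in any of the 10 genes at the threshold, while 9 of 10717 genes passed (0.084%) and 475 had an unadjusted p under 0.05 (limma, 2-sided). MYH7 ranged from 467 to 1370 FPKM with a median of 863 at high IMF and from 319 to 1620 FPKM with a median of 826 at low IMF. Differences ran from -0.24 ± 0.29 for CASQ2 (95% interval -0.84 to 0.35) to 0.27 ± 0.29 for MYL2 (-0.32 to 0.86, both limma adjusted p = 0.986). These intervals are wide enough to hold changes of most of a log2 unit. No difference in the slope on IMF between the re-analyzed and the unmarked libraries passed for any of the 10 genes (limma interaction, adjusted p = 1 for each). The largest was 0.10 for MYL2 (95% interval -0.06 to 0.27), so the test does not show that the slopes are alike. None of the 10717 genes passed (0%), and 176 had an unadjusted p under 0.05.

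The log2 ratio of the slow to the fast gene was not related to IMF in any of 9 families (permutation test within library set, 100000 resamples, 2-sided). Pearson's r ran from -0.11 for CASQ2 over CASQ1 (rho = -0.15, adjusted permutation p = 0.797 for r and 0.541 for rho over 9 families) to 0.07 for TPM3 over TPM1 (rho = 0.04, adjusted permutation p = 0.797 and 0.786). Without the 2 animals farthest from the median these were -0.08 and 0.08. MYH7 over MYH4 had r = 0.07 (rho = 0.07, adjusted permutation p = 0.797 and 0.786).

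Titles hold a number whose first 9 digits are shared by 2 to 7 animals in 48 cases, 146 animals in all, and what it stands for is not stated. Differences between these codes were tested with a moderated F test with the library set as covariate (limma), and 195 of 10717 genes passed (1.82%), with 2014 at an unadjusted p under 0.05. None of the 10 slow fibre genes passed. The intraclass correlation, the share of variance between codes, was highest for ATP2A2 at 0.189, above 90.2% of the tested genes (unadjusted p = 0.00899, limma adjusted p = 0.126). It was 0.131 for TNNT1 (limma adjusted p = 0.262), 0.123 for MYL3, 0.122 for TPM3, 0.105 for MYL2, 0.104 for MYH7, 0.0847 for MYH7B, 0.0640 for CASQ2, 0.0207 for TNNI1 and -0.0275 for TNNC1. The median was 0.104 over the 10 genes and 0.0479 over all tested genes. Among the 27 codes with at least 3 animals, the code means of ATP2A2 ran from 114 ± 48.5 FPKM (SD, n = 3; 81.4 to 170.0) to 279.5 ± 68.1 FPKM (SD, n = 4; 220.2 to 357). Those of TNNC1 ran from 885 ± 944 FPKM (SD, n = 3) to 1852 ± 641 FPKM (SD, n = 5).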

How the data were processed

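RNA-seq libraries (polyadenylated RNA, 150-bp paired ends) were aligned with HISAT2 2.0.5 and quantified with StringTie 1.3.3 on Sscrofa11.1, per the submitters' processing notes. Which annotation release was used is not given in the sources used here. For each annotated transcript (18114) and animal the authors deposited 1 value, taken as FPKM since the header names no unit. Here they were summed by gene (12651), and the 10717 genes averaging 0.5 FPKM or more were tested on log2(FPKM + 1); a fold change on this scale understates that of low genes.

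Fits over all genes used limma 3.58.1 in R 4.3.3 with a mean trend and Benjamini-Hochberg adjustment (threshold 0.05). Correlations used log2 values less library set means and 100000 permutations within library set (Python 3.11.15, numpy 2.4.6, scipy 1.17.1, pandas 2.3.3). Both procedures were tested on simulated data. P-values treat animals as independent and measure the spread between them; shared parents are not in the labels.

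The genes and lists were chosen with earlier results of these data known. Genes named beside them were the fast partners, the 4 genes of each list with the largest statistic on MYH7, and the nearest genes by r (10 at each end for the mean of the 10, and 3 for each); 1 gene so chosen is not reported here. Alternatives were the pseudocount (0.1), the filter (none, 5 FPKM), quantile normalization, equal library medians, other covariates, and the leaving out of libraries or sets. Adjustment for, or removal of, the 2 library measures, MYH7 by 1 transcript, re-analyzed libraries alone in the correlations and ratios, leaving out library 56 and title code as a block were added after the data were seen. No sequence is shown because none was used here.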

Additional observations from a re-analysis of the deposited data

Results flagged for a closer look

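Library 17, re-analyzed and of high IMF (n = 10), had 15.259 FPKM of MYH7B. On the scale of log2(FPKM + 1) this lay farther above the other 9 than Dixon's critical value for groups of 10 allows. The group ranged from 6.12 to 15.3 FPKM with a median of 7.05. This was 1 of 10 such groups examined, 1 for each gene, and chance passes this criterion in about 1 in 20 groups. The same animal had the highest ATP2A2 level of all 189, 370.5 FPKM.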

How the results depend on the processing

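The number of genes passing on MYH7 was 437, and 2815 with equal library medians, 1101 under quantile normalization, 972 with the length measure and 2374 with the top 10 share as covariate. For IMF it was 9, and 5 at a mean of at least 5 FPKM, 19 at pseudocount 0.1, 0 in unmarked libraries and 28 without library 39. For high against low IMF it was 9, and 5 at pseudocount 0.1. For title codes it was 195, and 110 with equal medians, 109 under quantile normalization, 59 in unmarked libraries, and 79 and 315 with the length measure and the top 10 share. Of the slow fibre genes, 2 passed for the mark, against 4 under quantile normalization, 4 with the length measure and 1 with the top 10 share. With title code as a block, in the fewer animals of shared codes, the counts of genes were 58 on MYH7, 0 for IMF (207 at an unadjusted p under 0.05, limma) and 1114 for the mark against 4400, and 1 slow fibre gene passed for the mark. The cause of the other changes was not tested.

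Of the slow fibre genes' values, those that changed sign had not passed by limma or by Pearson's r in the main setting. Of these, MYH7B with TNNC1 had passed by rho (-0.18, adjusted permutation p = 0.014). It had also passed by r in unmarked libraries alone (-0.21, adjusted permutation p = 0.00696). Among the other genes named, TNNT3 and CACNG1 passed on MYH7 and changed sign with equal medians (0.02 and 0.0012). For the IMF slope the changes were MYH7 without the set covariate (0.0020), and in unmarked libraries MYL2 (-0.030), TNNC1 (-0.047), TNNI1 (-0.0065) and TNNT1 (-0.0092). Without the extreme IMF values they were MYL2 (-0.0064), TNNC1 (-0.016) and TNNT1 (-0.0047), with equal medians TNNC1 (-0.013) and TNNT1 (-0.0012), and for TNNC1 also under quantile normalization (-0.012) and without the set covariate (-0.016). The r of MYH7B in re-analyzed libraries changed sign with CASQ2 (0.193), MYL3 (0.604), TNNC1 (0.733) and TNNI1 (0.826). With the top 10 share removed it did so with MYL3 (0.278), TNNC1 (0.0939) and TNNI1 (0.247), and with TNNI1 also under quantile normalization (0.0053) and with the length measure removed (0.0588). For high against low IMF, MYL3 was -0.051 with equal medians and -0.060 under quantile normalization. For the mark, ATP2A2 was -0.0021 under quantile normalization and -0.061 with the top 10 share, TPM3 -0.0053 under quantile normalization and TNNT1 -0.0077 with the length measure. For the ratio to the fast gene against IMF, MYL2 (-0.0040) and MYL3 (-0.0174) changed sign in unmarked libraries, and TNNC1 (0.1015) and TNNT1 (0.0840) in re-analyzed ones.

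With title code as a block, IMF slopes changed sign for MYH7 (0.053), MYH7B (-0.048), MYL3 (0.069), TPM3 (-0.0030), ATP2A2 (-0.016) and CASQ2 (0.024), and differences with the mark for ATP2A2 (-0.083), TNNT1 (-0.091) and TPM3 (-0.020). On deviations from title code means, 39 pairs passed as positive and 3 as negative, all with MYH7B: TNNC1 (-0.386), MYL3 (-0.298) and TNNI1 (-0.260). Without library 56, MYH7B and TNNC1 passed as negative (-0.17, adjusted permutation p = 0.0245). Depth is unknown, so the precision of MYH7B and CASQ2, the 2 low genes, could not be given beyond the spread between animals.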
